A study of Homo sapiens with 26 samples.

Results

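The expression of 36 genes of homologous recombination and the Fanconi anemia pathway was examined in 26 single cell-derived cell lines (SCDCLs). The genes were taken from a list of symbols, and all 36 listed symbols were found by Ensembl identifier among the 41078 genes of the deposited table. Each SCDCL had been grown from 1 cell of BxPC3 or Panc-1, established lines of pancreatic ductal adenocarcinoma (PDAC) that the labels describe as classical-like and basal-like, and each was sequenced as 1 library of polyadenylated RNA. The labels assign 12 libraries to BxPC3 and 14 to Panc-1, and gemcitabine is the treatment they give throughout, although according to the methods the drug was applied in viability assays, which were separate. Levels are given as TPM, transcript abundances scaled to the library and corrected for transcript length.

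Homologous recombination repairs a broken chromosome by copying the intact sister chromatid, and it works mainly in S and G2 phase, when a sister is present. The Fanconi anemia pathway removes crosslinks that tie the DNA strands together: its core complex attaches ubiquitin to FANCD2 and FANCI, which then bring in nucleases. Some pancreatic cancers carry inherited defects in BRCA2 or PALB2, which is why these genes matter for platinum drugs and PARP inhibitors in this disease.

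The libraries were divided by the level of SMAD4, a gene that BxPC3 lacks and Panc-1 retains. SMAD4 was at most 0.0440 TPM in 12 libraries, called SMAD4-low here, and at 28.1 to 52.2 TPM in the 14 others, called SMAD4-expressing. The groups had the same sizes as the labelled lines, 12 for BxPC3 and 14 for Panc-1, but this division did not follow the labels. The cause was not tested. Of the SMAD4-low libraries 5 were labelled BxPC3 and 7 Panc-1, and of the SMAD4-expressing libraries 7 carried each label. CDKN2A, which both lines lack, was at 0 TPM in every library. The summed level of 4 epithelial markers (CDH1, EPCAM, KRT19, KRT7) was 3283 to 6742 TPM in the SMAD4-low and 584 to 2121 TPM in the SMAD4-expressing libraries, and 3 of the 4 did not overlap. The sum of 4 mesenchymal markers (VIM, ZEB1, CDH2, FN1) was 12.4 to 129 TPM and 3109 to 4565 TPM. VIM and ZEB1 were higher in the SMAD4-expressing libraries without overlap, and FN1 was lower there without overlap, with medians of 1.33 against 32.6 TPM. CDH2 overlapped. VIM alone was at 3047 to 4526 TPM in the SMAD4-expressing libraries, so the sum there is mostly VIM. Most of these markers therefore differed across the same division, FN1 against the other mesenchymal ones, and their part in the values below was not tested. Because SMAD4 is itself a measured value, the division is described with ranges and medians and with no test. The libraries held 27035724 to 34945608 estimated counts, and each library is 1 culture, so spread between libraries holds differences between SCDCLs and technical error together. In such bulk RNA, fewer cells of a type and less RNA per cell cannot be told apart.

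The bases before the transcription start are shown for 4 members that rose with a proliferation score in the SMAD4-expressing libraries, BARD1, RAD51C, BRIP1 and BLM. They come from the RefSeq promoter table on GRCh38.p14 and are written 5′ to 3′ on the strand of the gene, up to the annotated gene. Capitals mark matches, on either strand, to the CCAAT box or to the cell cycle homology region (CHR, TTTGAA or TTCGAA).
BARD1, chr2:214809684-214809933, minus strand: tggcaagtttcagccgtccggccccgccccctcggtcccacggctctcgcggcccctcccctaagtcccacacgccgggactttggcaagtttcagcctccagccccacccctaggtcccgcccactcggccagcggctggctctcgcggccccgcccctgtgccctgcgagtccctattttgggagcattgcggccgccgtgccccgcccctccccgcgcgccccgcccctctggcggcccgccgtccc
RAD51C, chr17:58692323-58692572, plus strand: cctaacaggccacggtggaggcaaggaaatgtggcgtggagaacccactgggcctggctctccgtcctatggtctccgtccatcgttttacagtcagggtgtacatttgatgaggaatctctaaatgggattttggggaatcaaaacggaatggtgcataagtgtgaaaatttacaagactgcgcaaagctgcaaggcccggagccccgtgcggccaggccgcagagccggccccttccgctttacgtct
BRIP1, chr17:61863560-61863778, minus strand: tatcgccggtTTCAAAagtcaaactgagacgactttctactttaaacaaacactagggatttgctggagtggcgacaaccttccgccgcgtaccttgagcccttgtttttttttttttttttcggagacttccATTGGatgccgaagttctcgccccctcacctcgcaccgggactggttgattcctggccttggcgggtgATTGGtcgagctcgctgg
BLM, chr15:90717096-90717345, plus strand: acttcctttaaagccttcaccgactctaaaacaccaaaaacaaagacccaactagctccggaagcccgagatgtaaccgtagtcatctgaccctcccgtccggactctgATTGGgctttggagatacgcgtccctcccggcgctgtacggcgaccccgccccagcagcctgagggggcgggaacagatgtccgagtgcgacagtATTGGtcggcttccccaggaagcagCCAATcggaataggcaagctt

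The BARD1 and RAD51C stretches held no match, whereas those of BRIP1 and BLM held 3 each. Over all members, 32 of 36 had an entry in the promoter table, and NBN, RAD54B, WRN and FANCI had none. In the 250 bases before the start, CCAAT was found in 12 of the 32 members (37.5%) and in 32.9% of 27305 promoters of all genes. The CHR was found in 3 members (9.38%), BRIP1, POLQ and UBE2T, and in 14.7% of all promoters. An E2F site, searched as TTTCCCGC, TTTCGCGC, TTTGCCGC or TTTGGCGC, was found in FANCA alone among the 32 (3.12%) and in 2.76% of all promoters. A match is a stretch of letters and says nothing about binding.

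All 36 members were transcribed in all 26 libraries, the smallest value being 69.7 estimated counts for RAD51B. Across the SMAD4 division, the median TPM of 24 members was higher in the SMAD4-low libraries and that of 12 was lower. The median log2 ratio of the members was 0.42, and that of the 14763 genes with a mean of at least 1 TPM was -0.03. Only 6 members separated the libraries fully on the TPM scale: RAD51C, WRN, POLQ, BRIP1 and FANCM were higher in every SMAD4-low library than in any other, and RAD50 was lower. Of all genes, 14.5% were higher without overlap and 15.8% were lower without overlap, against 5 and 1 of the 36 members. Neither count was above its share of all genes on this scale, and 30 of the 36 members overlapped.

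**Figure D1:**
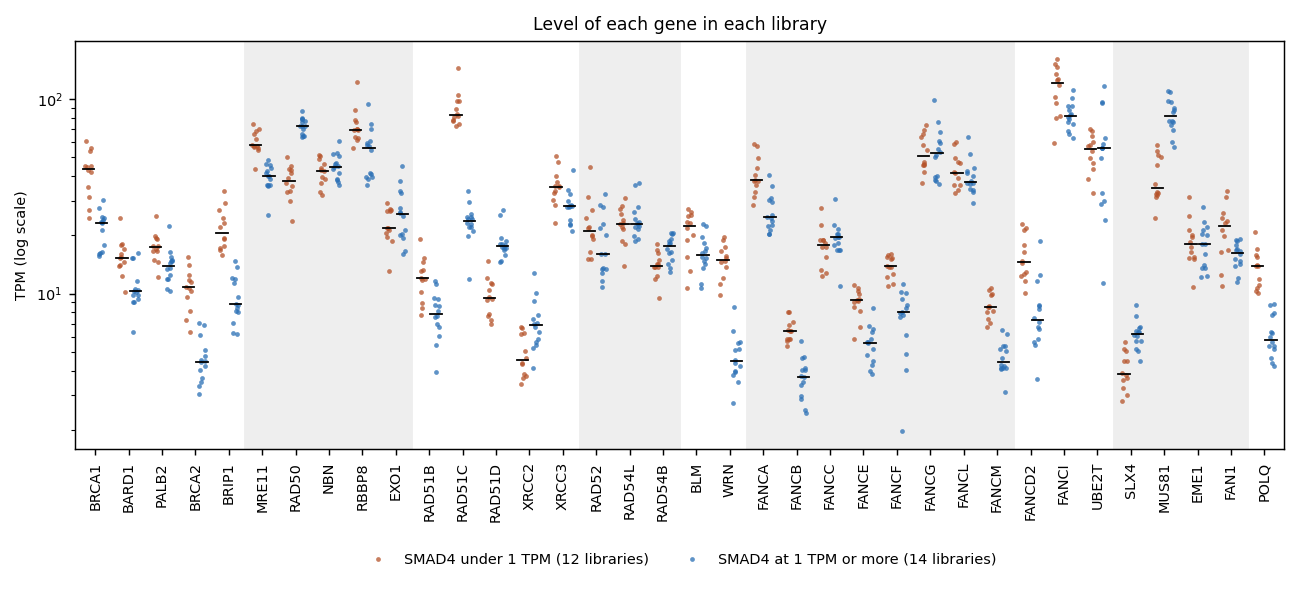
Level in TPM (log axis) of each of the 36 genes, grouped by role with shaded bands, where each point is 1 library and each black line the median of the group. RAD51C, WRN, POLQ, BRIP1 and FANCM sit higher in all 12 SMAD4-low libraries and RAD50 lower, and the other 30 genes overlap.

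In the complex that starts and guides recombination, all 5 members had higher medians in the SMAD4-low libraries. BRCA1 (ENSG00000012048, GRCh38 chromosome 17, 43044295 to 43170245), which with its partner BARD1 forms a ubiquitin ligase that promotes resection of the broken end, was at 24.4, 43.8 and 60.6 TPM (lowest, median and highest) in the SMAD4-low libraries. In the SMAD4-expressing libraries it was at 15.5, 23.1 and 30.2 TPM. The log2 ratio of the medians was 0.92, and 10 of the 12 SMAD4-low libraries lay above all 14 others. BARD1 (ENSG00000138376, chromosome 2, 214725646 to 214809683) was at 10.2, 15.3 and 24.5 TPM against 6.36, 10.3 and 16.2 TPM, a log2 ratio of 0.58, and only 4 of the 12 lay above all others.

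PALB2 (ENSG00000083093, chromosome 16, 23603160 to 23641321), the bridge between BRCA1 and BRCA2, differed least within this complex. It was at 12.2, 17.2 and 24.9 TPM in the SMAD4-low and at 10.3, 13.9 and 22.2 TPM in the SMAD4-expressing libraries, a log2 ratio of 0.31. The upper end of the second range was library 22, labelled BxPC3, and the next highest library was at 16.4 TPM. BRCA2 (ENSG00000139618, chromosome 13, 32315086 to 32400268), which loads the strand-exchange recombinase onto single-stranded DNA, was at 6.36, 10.8 and 15.3 TPM against 3.04, 4.48 and 7.04 TPM. The log2 ratio was 1.27, and the ranges met only through library 26, labelled BxPC3, the lowest of the SMAD4-low libraries. BRIP1 (ENSG00000136492, chromosome 17, 61679139 to 61863559), a helicase that binds BRCA1, was at 15.7, 20.6 and 33.5 TPM against 6.21, 8.78 and 14.7 TPM. Its log2 ratio was 1.23, and the ranges did not overlap.

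The genes of DNA end resection, the step that exposes single-stranded DNA, did not move together. RAD50, MRE11 and NBN encode 1 complex that binds the broken end. RAD50 (ENSG00000113522, chromosome 5, 132556019 to 132646349) was at 23.5, 38.0 and 50.3 TPM in the SMAD4-low libraries and at 63.4, 72.5 and 86.7 TPM in the others. The log2 ratio was -0.93, and every SMAD4-low library lay below every other one. MRE11 lay in the opposite order, at 43.7, 57.6 and 73.9 TPM against 25.2, 40.1 and 48.7 TPM (log2 ratio 0.52), with 11 of 12 SMAD4-low libraries above all others. The medians of NBN were 42.8 and 44.8 TPM, a log2 ratio of -0.07, and its ranges overlapped. RBBP8, which activates MRE11, had medians of 69.5 and 55.8 TPM (log2 ratio 0.32), and the exonuclease EXO1 had medians of 21.7 and 25.5 TPM (log2 ratio -0.23). Both overlapped between the groups.

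Among the 5 paralogs of the recombinase, which assemble into complexes that steady its filament on DNA, RAD51C had the largest ratio of all members and RAD51D one of the smallest. RAD51C (ENSG00000108384, chromosome 17, 58692573 to 58735611) was at 72.1, 82.5 and 144 TPM in the SMAD4-low libraries and at 11.9, 23.6 and 33.7 TPM in the others. The medians differed 3.50-fold, a log2 ratio of 1.81. The gap was present within each label: RAD51C was at 72.1 to 88.7 TPM in the 5 SMAD4-low libraries labelled BxPC3 and at 19.7 to 33.7 TPM in the 7 SMAD4-expressing libraries of that label. The same ranges were 73.9 to 144 TPM and 11.9 to 24.2 TPM in the libraries labelled Panc-1. The highest value, 144 TPM, was that of library 4, and the next highest library was at 104 TPM.

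RAD51D (ENSG00000185379, chromosome 17, 35092221 to 35121522) was at 6.93, 9.48 and 14.7 TPM in the SMAD4-low and at 14.5, 17.6 and 26.7 TPM in the SMAD4-expressing libraries. Its log2 ratio was -0.89, and 11 of 12 SMAD4-low libraries lay below all others. XRCC2 (ENSG00000196584, chromosome 7, 152644776 to 152676193) was at 3.44, 4.53 and 6.74 TPM against 4.17, 6.87 and 12.8 TPM, a log2 ratio of -0.60, with 4 of 12 libraries below all others. The other two paralogs leaned the opposite way, RAD51B with a log2 ratio of 0.61 and XRCC3 with 0.33, and both overlapped. RAD51C, RAD51D, RAD51B and XRCC2 act in 1 complex, so its subunits did not share a direction.

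RAD52, which anneals single strands, was at 15.03, 20.8 and 44.7 TPM in the SMAD4-low and at 10.8, 15.9 and 32.5 TPM in the SMAD4-expressing libraries (log2 ratio 0.39). RAD54L, a motor protein that remodels the recombinase filament, had a median of 22.8 TPM in both groups. Its relative RAD54B (ENSG00000197275, chromosome 8, 94371960 to 94475115) was at 9.47, 13.9 and 17.9 TPM against 12.9, 17.5 and 20.5 TPM, a log2 ratio of -0.33. All of them overlapped between the groups.

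WRN and BLM, the RecQ helicases among the members, were both higher in the SMAD4-low libraries by their medians. WRN (ENSG00000165392, chromosome 8, 31033788 to 31176138), the gene of Werner syndrome, was at 9.86, 14.9 and 19.5 TPM in the SMAD4-low libraries and at 2.74, 4.49 and 8.50 TPM in the others. The log2 ratio of 1.74 was the second in size after RAD51C, and the groups did not overlap. BLM, the gene of Bloom syndrome, which resolves joined DNA molecules without crossing over, had medians of 22.3 and 15.8 TPM (log2 ratio 0.50). Its groups overlapped, with 6 of 12 SMAD4-low libraries above all others.

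Of the 8 Fanconi anemia core genes, 6 had higher medians in the SMAD4-low libraries. FANCM, the translocase that anchors the core complex to DNA, was at 6.70, 8.55 and 10.7 TPM against 3.12, 4.47 and 6.48 TPM (log2 ratio 0.94), without overlap. FANCF, an adaptor subunit, was at 10.97, 13.8 and 15.9 TPM against 1.97, 7.99 and 11.2 TPM (log2 ratio 0.79), with 11 of 12 SMAD4-low libraries above all others. FANCB, a scaffold of the catalytic part, had medians of 6.41 and 3.74 TPM (log2 ratio 0.78), with 11 of 12 above all others. The remaining subunits overlapped: the log2 ratio was 0.72 for FANCE, 0.63 for FANCA, 0.16 for FANCL, -0.04 for FANCG and -0.13 for FANCC. FANCL is the ubiquitin ligase of the complex, and its medians were 41.8 and 37.4 TPM.

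The substrates of the core complex, FANCD2 and FANCI, form a clamp on DNA once they carry ubiquitin. FANCD2 (ENSG00000144554, chromosome 3, 10026370 to 10101932) was at 10.1, 14.6 and 22.7 TPM in the SMAD4-low and at 3.62, 7.28 and 18.7 TPM in the SMAD4-expressing libraries. The log2 ratio was 1.00, but only 3 of 12 SMAD4-low libraries lay above all others, because library 20, labelled BxPC3, reached 18.7 TPM and the next highest 12.5 TPM. FANCI (ENSG00000140525, chromosome 15, 89243945 to 89317261) was at 59.0, 121 and 160 TPM against 62.6, 81.7 and 111 TPM. Its log2 ratio was 0.57, and the lowest library of all, library 26, was SMAD4-low. UBE2T (ENSG00000077152, chromosome 1, 202331544 to 202341984), the ubiquitin-conjugating enzyme that works with FANCL, had medians of 55.6 and 55.8 TPM.

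Downstream of the clamp, the structure-specific nucleases split by direction. MUS81 (ENSG00000172732, chromosome 11, 65857126 to 65867653), which cuts stalled forks and joined molecules together with EME1, had the smallest ratio of all members. It was at 24.4, 34.8 and 58.2 TPM in the SMAD4-low and at 56.9, 81.5 and 110 TPM in the SMAD4-expressing libraries, a log2 ratio of -1.23, and 11 of 12 lay below all others. Its partner EME1 had a median of 17.9 TPM in both groups. SLX4 (ENSG00000188827, chromosome 16, 3581181 to 3611606), the scaffold that binds MUS81, was at 2.81, 3.87 and 5.63 TPM against 4.48, 6.22 and 8.70 TPM (log2 ratio -0.69), with 7 of 12 below all others. FAN1, a nuclease that binds ubiquitinated FANCD2, had medians of 22.2 and 16.2 TPM (log2 ratio 0.45).

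POLQ (ENSG00000051341, chromosome 3, 121431431 to 121545988), the polymerase of an error-prone end joining route on which cells without BRCA genes depend, was at 10.1, 13.9 and 20.6 TPM in the SMAD4-low libraries. In the SMAD4-expressing libraries it was at 4.24, 5.80 and 8.82 TPM. The log2 ratio was 1.26, and no library of one group reached the other.

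After normalization of counts by the trimmed mean of M-values (TMM), the same ratios were found within a small margin, with 1.81 for RAD51C, 1.63 for WRN, -0.87 for RAD50 and -1.06 for MUS81, and a median of 0.40 over the members against -0.04 over all genes. On this scale, in TMM-normalized CPM (counts scaled to the library total), 12 members did not overlap, 9 higher and 3 lower, where 15.1% of all genes were higher and 16.1% lower without overlap. BRCA2, MRE11, FANCB and FANCF joined those that were higher, and RAD51D and MUS81 joined RAD50 among those that were lower. The 9 higher members were above, and the 3 lower ones below, these shares of all genes, which differs from TPM. On TPM, leaving out library 26 alone raised the count of members from 6 to 10, 9 higher and 1 lower, where 15.4% of all genes were higher and 15.9% lower. Whether these counts differ from the shares over all genes was not tested.

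Other genes of the same pathways did not share the lean of the members. Of 39 further genes of homologous recombination and the Fanconi anemia pathway, 18 had higher and 21 had lower medians in the SMAD4-low libraries, with a median log2 ratio of -0.12. HROB, which brings a helicase to recombining DNA, was the 1 gene higher without overlap (log2 ratio 2.08), and RMI2, a partner of BLM, followed with 1.38. Of the 6 that were lower without overlap, FAAP100, the partner of FANCB, was at -2.53 and BABAM2, a subunit of the BRCA1-A complex, at -1.80. Of 17 genes of end joining and of the block to resection, 2 were higher and 2 were lower without overlap, and the median log2 ratio was -0.19. The farthest in each direction were POLM (0.88) and DCLRE1C (0.72) on the higher side, and NHEJ1 (-1.97) and LIG3 (-1.05) on the lower side. The S phase genes used below had a median log2 ratio of 0.63 and the G2M genes of -0.09. The farthest S phase genes were CDC45 (1.32) and MCM4 (1.31) against RRM2 (-1.49) and TYMS (-0.77), and the farthest G2M genes were CCNA2 (2.20) and CDK1 (0.64) against BUB1 (-1.03) and CENPF (-0.88). CCNA2 was at 0.000507, 7.58 and 33.9 TPM (lowest, median and highest) in the SMAD4-expressing libraries, so its ratio includes values near 0. The part of the S phase and G2M genes in the ratios of the members was not tested.

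Between the libraries labelled BxPC3 and those labelled Panc-1, the members gave no call. SMAD4 went against the label in 7 libraries labelled Panc-1, which were SMAD4-low, and in 7 labelled BxPC3, which were SMAD4-expressing. The test therefore compares labels and cannot decide whether BxPC3 and Panc-1 differ in these genes. With edgeR's quasi-likelihood test and Benjamini-Hochberg adjustment over 16008 genes, 0 members and 0 genes in all (0%) had an adjusted p under 0.05, and 367 genes (2.29%) but 0 members had an unadjusted p under 0.05. DESeq2 called 1 gene, not a member, and had 1 member and 2.87% of all genes at an unadjusted p under 0.05. RAD51C, for example, was at 19.7, 31.7 and 88.7 TPM in the libraries labelled BxPC3 and at 11.9, 49.1 and 144 TPM in those labelled Panc-1, which overlap. With SMAD4 under 1 TPM as a covariate the count remained 0 members and 0 genes, and 3 of 36 members and 7.52% of all genes had an unadjusted p under 0.05, so the members were close to the share over all genes.

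Within each group the members varied between libraries by about as much as other genes did. The SD over the mean of TPM, taken for each member over the libraries of a group, had a median of 22.3% in the SMAD4-low and 22.7% in the SMAD4-expressing libraries. The jackknife standard errors over libraries were 1.87 and 2.30 percentage points. The medians over all genes with a mean of at least 1 TPM were 22.8% (14375 genes) and 21.8% (13826 genes). Most of this spread was larger than the error of counting and read assignment that kallisto's resampled counts give within a library: the SD over mean was at least 2 times that error for 33 of 36 members in the SMAD4-low and for 34 in the SMAD4-expressing libraries. The exceptions were FANCB, FANCD2 and UBE2T in the first group, and FANCB and FAN1 in the second. FANCB had an SD over mean of 13.5% against a resample error of 13.99% in the SMAD4-low libraries, but that error came mostly from library 4 (41.5%). Without library 4 it was 7.57%, below the spread between libraries.

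**Figure D2:**
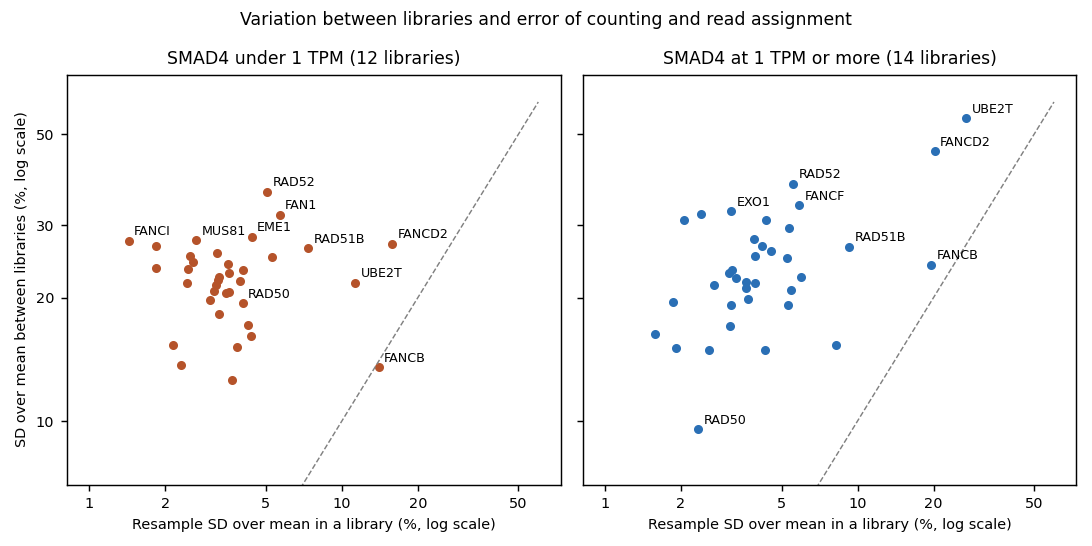
SD over mean of TPM between the libraries of a group (vertical, %, log axis) against the root mean square, over those libraries, of the SD over mean of resampled counts within 1 library (horizontal, %, log axis), where each point is 1 of the 36 genes and the dashed line marks equal values. FANCB, FANCD2 and UBE2T lie nearest to the line in the SMAD4-low libraries, where FANCB lies to its right. FANCB and FAN1 lie nearest to it in the SMAD4-expressing libraries.

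In the SMAD4-low libraries the most variable members on TPM were RAD52 (36.3%), FAN1 (31.8%), EME1 (28.2%), MUS81 (27.6%) and FANCI (27.5%). The spread of RAD52 came in part from library 24, labelled BxPC3, at 44.7 TPM against 31.5 TPM in the next highest, and without it the value was 24.0%. FAN1 was at 10.98, 22.2 and 33.5 TPM, and EME1 at 10.9, 17.9 and 31.1 TPM (lowest, median and highest). The SD over mean of FAN1 was 27.9% without library 4, and that of EME1 was 21.3% without library 24. Single libraries also set the values of RBBP8, where library 16 was at 122 TPM and the SD over mean fell from 23.6% to 12.8% without it, and of RAD51C, where library 4 was highest and the value without it was 12.5%. The lowest SD over mean on TPM was that of FANCF (12.6%). The order changed on TMM-normalized CPM, where the highest values were those of RAD52 (29.3%), RAD51B (27.7%), FAN1 (26.8%), RAD51C (23.8%) and EME1 (23.3%). On this scale MRE11 (6.89%), FANCB (8.93%) and NBN (10.9%) were lower than FANCF (11.4%).

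In the SMAD4-expressing libraries the most variable members were UBE2T (54.8%), FANCD2 (45.6%), RAD52 (37.9%), FANCF (33.6%) and EXO1 (32.5%). UBE2T ranged 10.4-fold, from 11.3 TPM in library 19 to 117 TPM in library 22, both labelled BxPC3, but its resample error was 26.96%, the largest of all members. The resample error of FANCD2 was 20.2%, so part of the spread of both genes is the uncertainty of assigning their reads to transcripts. FANCF was at 1.97 TPM in library 22, from 102 estimated counts, against a group median of 7.99 TPM, and its value without that library was 25.6%. EXO1 was at 16.04, 25.5 and 45.2 TPM, with a resample error of 3.15%. PALB2 (21.1%) depended on library 22, without which it was 14.1%. RAD50, the member that separated the groups downward, was the steadiest here (9.55%).

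A few libraries held the extremes of many members. In the SMAD4-low group library 3, labelled Panc-1, held the highest TPM of 11 members and lay above the group median for 35 of 36, whereas library 26 held the lowest of 16 and library 1 of 11. The median gene of library 26 lay 0.19 below its group median in log2 TPM. On TMM-normalized CPM library 26 held the lowest of 8 members and library 1 of 13. In the SMAD4-expressing group, library 22 held the highest TPM of 14 members and library 20 of 10, with 14 and 8 on CPM. The summed TPM of the 36 members was 814 to 1316 in the SMAD4-low and 776 to 1146 in the SMAD4-expressing libraries.

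**Figure D3:**
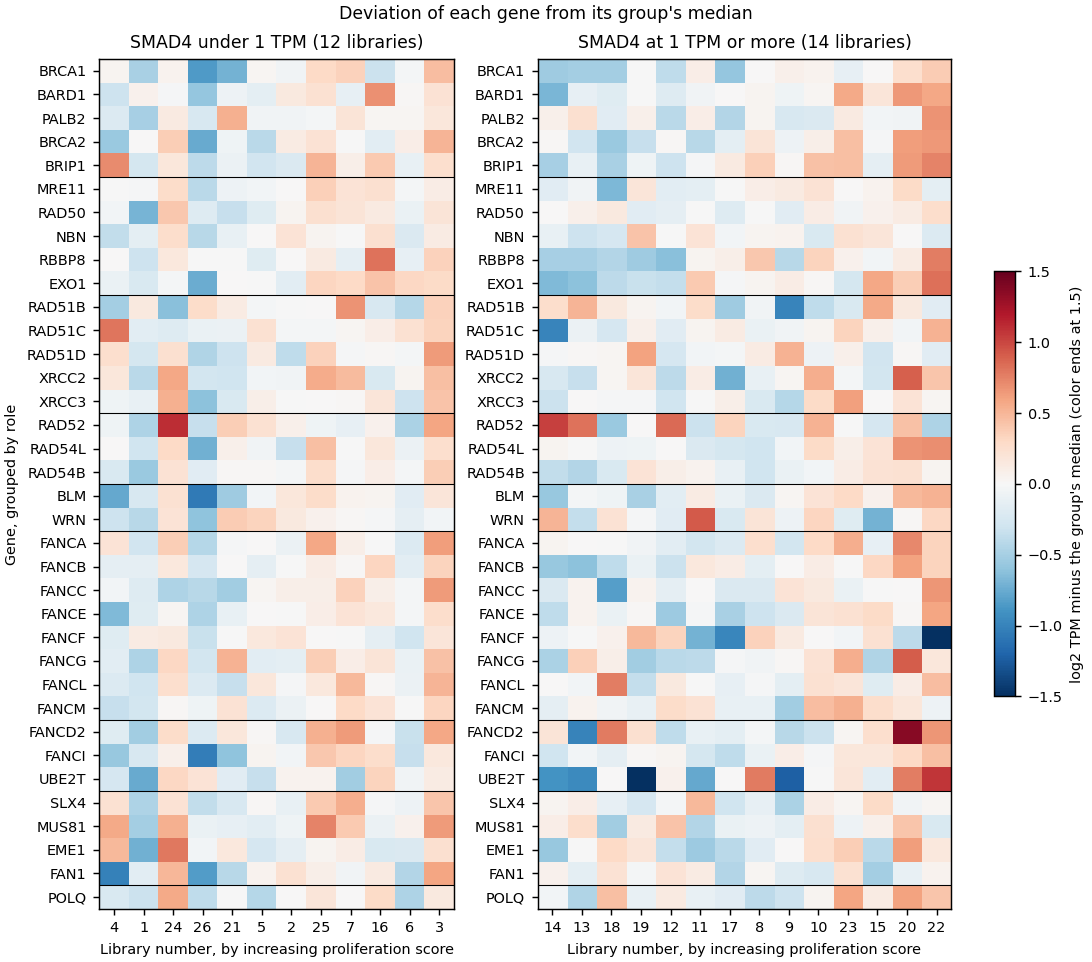
Deviation of each gene's log2 TPM from the median of its group (color, ending at 1.5), with genes as rows grouped by role and libraries as columns ordered by the proliferation score of their group. Library 26 is low for most genes and library 3 high in the left panel, and libraries 20 and 22, at the high end of the score, are high in the right panel, with FANCF low in library 22.

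Since recombination belongs to S and G2 phase, the members were compared with a proliferation score, the mean z-score of 34 genes of DNA replication and mitosis that include no member, scaled to an SD of 1 within each group. In the 14 SMAD4-expressing libraries, 9 of 36 members rose with the score at an adjusted p under 0.05 (edgeR's quasi-likelihood test, adjusted over 16217 genes), and none fell. Of all genes tested, 324 (2%) rose at this threshold. The slope was positive for 29 of 36 members, 19 members of either direction had an unadjusted p under 0.05 (16.2% of all genes did), and the median slope was 0.17 log2 per SD of the score, against 0.00 over all genes.

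EXO1 had the steepest slope among the members that passed, 0.41 log2 per SD (SE 0.070, edgeR adjusted p = 0.00616). Its level was 19.3 CPM in library 14, which had the lowest score (-2.07), 20.1 CPM in library 13, and 58.1 CPM in library 22, which had the highest (1.87). BARD1 had a slope of 0.32 (SE 0.055, edgeR adjusted p = 0.00616), with 11.9 CPM in library 14 and 30.7 CPM in library 22. The other members of the BRCA1 complex that rose were BRIP1 (0.32, SE 0.066, edgeR adjusted p = 0.0153) and BRCA1 itself (0.27, SE 0.056, edgeR adjusted p = 0.0175). RBBP8 (0.33), FANCB (0.33), RAD51C (0.27), BLM (0.25) and FANCI (0.18) made up the rest, with edgeR adjusted p from 0.0252 to 0.0472. They came from resection, the core complex, the paralogs, the helicases and the clamp. For FANCB the SD over mean in this group was 24.0% and the resample error 19.6%, an error that the test does not take in.

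Members that did not pass include BRCA2 (slope 0.24, SE 0.071, edgeR adjusted p = 0.0819) and UBE2T, whose slope of 0.52 was the largest but had an SE of 0.17 (edgeR adjusted p = 0.127). FANCD2 had a slope of 0.25 (SE 0.14) and POLQ of 0.18 (SE 0.081). PALB2, RAD50, NBN, SLX4, WRN and MUS81 had slopes between -0.03 and 0.09. RAD52 had the most negative slope (-0.28, SE 0.11, edgeR adjusted p = 0.207).

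**Figure D4:**
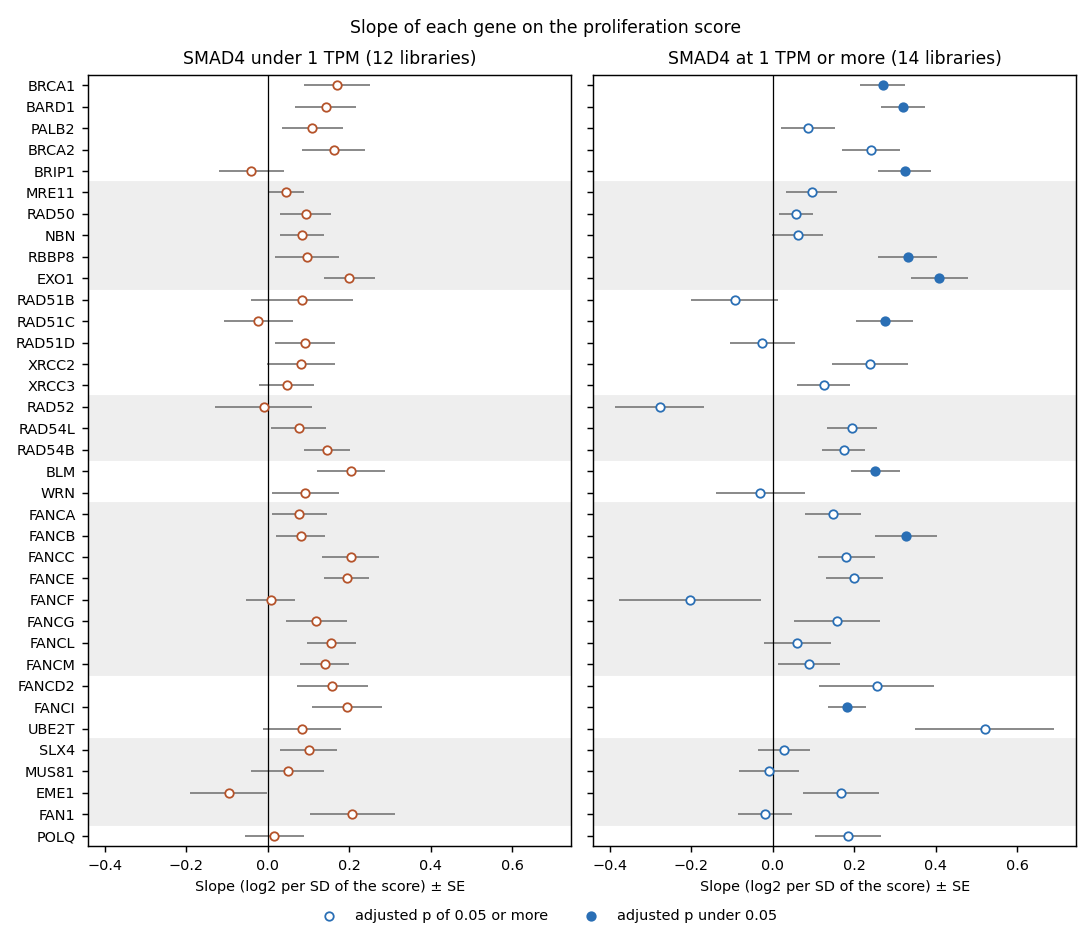
Slope of each gene on the proliferation score in log2 per SD with its SE as a bar, in the SMAD4-low (left) and SMAD4-expressing (right) libraries, with filled points at an adjusted p under 0.05 from edgeR. The 9 filled points are all in the right panel and all positive, and 32 of 36 points in the left panel are also above 0.

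These calls rested on the ends of the score. Without libraries 14 and 22, the 2 farthest from the median score, 0 of 36 members passed. Still, 28 slopes were positive and 9 members had an unadjusted p under 0.05 (8.61% of all genes did). EXO1 had a slope of 0.29 (SE 0.083, edgeR adjusted p = 0.313). For this fit the score was scaled again to an SD of 1 over the remaining libraries. The slope of 0.29 is therefore in another unit than the 0.41 above, and their difference shows no weaker rise. Rising calls over all genes fell as well, from 2% to 0.00605% without libraries 14 and 22. Leaving out library 14 alone left EXO1 as the 1 call among the members, where 0.582% of all genes rose. Leaving out library 22 alone left BARD1 (0.521% of all genes), and leaving out library 13 left 4 calls (0.74%). With the S phase genes alone as the score, 7 members passed, where 1.69% of all genes rose. With the G2M genes alone, 2 passed, BARD1 and EXO1, where 1.29% of all genes rose.

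**Figure D5:**
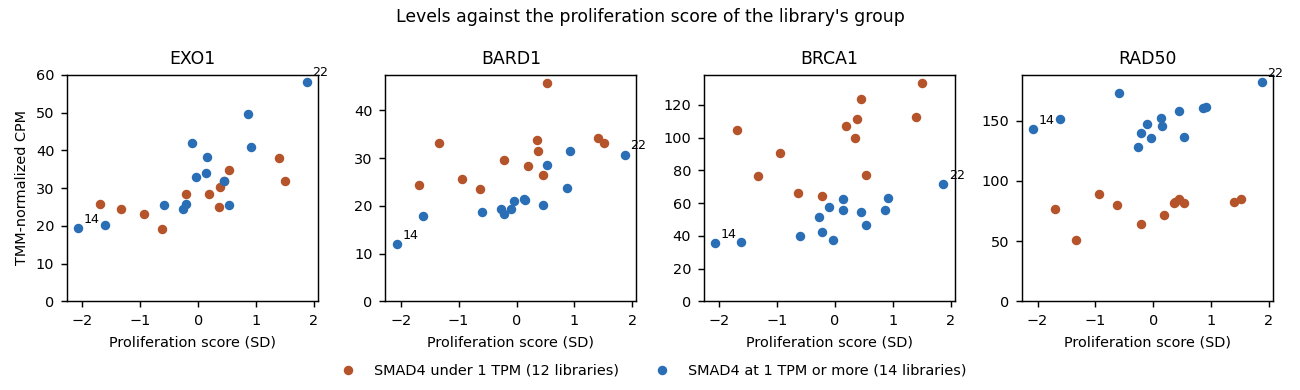
TMM-normalized CPM (vertical, from 0) of EXO1, BARD1, BRCA1 and RAD50 against the proliferation score of the library's group (horizontal, in SD), with 1 point per library and libraries 14 and 22 numbered. EXO1, BARD1 and BRCA1 are lowest in library 14 among the SMAD4-expressing libraries, EXO1 and BRCA1 are highest in library 22, and RAD50 shows the gap between the groups.

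In the 12 SMAD4-low libraries no member passed with edgeR, and 56 of 16756 genes (0.334%) rose at the threshold. The slope was positive for 32 of 36 members, with a median of 0.09. At an unadjusted p under 0.05 were 8 of 36 members, close to the share over all genes (20.5%). FANCE (0.19, SE 0.055, edgeR adjusted p = 0.0898) and EXO1 (0.20, SE 0.062, edgeR adjusted p = 0.106) came closest. Both passed with DESeq2, which called 3.33% of all genes as rising. BRIP1 and RAD51C, which rose in the SMAD4-expressing libraries, had slopes of -0.04 (SE 0.080) and -0.02 (SE 0.085) here. Library 4, which had the lowest score of this group (-1.69), held the highest TPM of both genes. Their slopes were 0.076 (SE 0.071) and 0.145 (SE 0.063) without libraries 4 and 1, the 2 farthest from the median score. The score was scaled again over the remaining libraries. In that fit 29 of 36 slopes were positive and 0 members passed, where 0.00606% of all genes rose. Whether slopes differ between the groups was not tested.

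Of the 39 further genes of the same pathways, 8 rose with the score in the SMAD4-expressing libraries with edgeR, where 2% of all genes rose. In this group 18 of the 39 had an unadjusted p under 0.05, beside 16.2% of all genes. In the SMAD4-low libraries 0 of the 39 rose with edgeR, and 12 had an unadjusted p under 0.05, beside 20.5% of all genes. Of the 17 genes of end joining, 1, XRCC5, rose in the SMAD4-expressing libraries, and 8 had an unadjusted p under 0.05. In the SMAD4-low libraries 0 of the 17 rose, and 6 had an unadjusted p under 0.05. The shares over all genes are the same as above. None of these genes fell at the threshold in either group.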

How the data were processed

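Polyadenylated RNA of 26 SCDCLs was sequenced as strand-specific libraries, and, per the labels, the authors assigned reads to GRCh38 transcripts with kallisto 0.46.1. The deposited table gives, for each gene and library, TPM, estimated counts made from TPM and transcript length (expected counts, not normalized between libraries), mean effective transcript length (another unit, in bases, deposited by the authors) and estimated counts of resamples made by kallisto. All 30 resamples of each library were used, and their SD over mean is called the resample error. The libraries held 27035724 to 34945608 estimated counts. Low counts and uncertain read assignment limit precision, and the resamples measure both.

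Identifiers were matched to GENCODE 44 (36315 of 41078 genes). Ratios are of median TPM, with SMAD4-low over SMAD4-expressing libraries, among genes with a mean of at least 1 TPM. Estimated counts were rounded and tested with edgeR 4.0.16 (R 4.3.3), TMM, filterByExpr and Benjamini-Hochberg adjustment over all genes. The score used log2(CPM + 1), and its own genes were not tested. Alternatives used DESeq2 1.42.0, limma 3.58.1, other scales and filters, parts of the score, and each library left out in turn. Tests were tried on simulated data first. Promoters with several starts are represented by the start of lowest coordinate. Python 3.11.15 with pandas 2.3.3 and matplotlib 3.10.9 was used. Members and gene lists were chosen with earlier results of these data known. Values in full are given for the 6 members with the largest and the 6 with the smallest ratio, the 5 most variable of each group, and BRCA1, BRCA2, PALB2, FANCD2, FANCI and POLQ, and for other lists the 2 farthest genes in each direction. BARD1, EXO1 and further members were described after their values had been seen. P-values measure the spread between libraries. Response to gemcitabine and protein data were not analysed here.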

Additional observations from a re-analysis of the deposited data

How the results depend on the processing

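No paired analysis was made, because each library is a separate SCDCL and the replicate numbers only count the libraries. With TMM-normalized CPM and with DESeq2 size factors, 34 of 36 ratios kept their direction, and their medians were 0.40 and 0.45. The 2 that turned were close to 0: RAD54L went from -0.00044 to 0.05 and 0.09, and EME1 from 0.0020 to -0.03 and -0.02. The number of members without overlap across the SMAD4 division, 6 on TPM, was 12 on CPM and 6 to 10 with each library left out. Between the labelled lines 0 members were called under all alternatives tried. In the SMAD4-expressing libraries, 9 members rose with the score, where 2% of all genes did (the share follows each count in brackets). The count was 7 with DESeq2 size factors (1.86%), 12 with DESeq2 (4%), 9 with limma (1.97%) and 5 without a filter on low counts (0.824%). It was 7 and 2 with the S phase and G2M parts of the score (1.69% and 1.29%). Without the 2 farthest libraries it was 0 (0.00605%), and with each library left out 1 to 8 (0.521% to 2.48%). In the SMAD4-low libraries the count of 0 became 2 with DESeq2 (EXO1 and FANCE), where 3.33% of all genes rose. It became 1 with the S phase part (EXO1), where 1.19% of all genes rose, and was 0 with each library left out. The median SD over mean in the SMAD4-low libraries, 22.3%, was 18.8% on CPM and 21.1% to 22.98% with each library left out. In the SMAD4-expressing libraries, where it was 22.7%, it was 20.1% from the median absolute deviation and 20.99% to 23.5% with each library left out. The cause of these changes was not tested. Each SCDCL has 1 library, so variation between cultures of an SCDCL was not measured.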
